A study of Homo sapiens with 6 samples.

Results

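The genes described here encode the intracellular brakes on cytokine signalling: the suppressors of cytokine signalling SOCS1, SOCS2, SOCS3, SOCS4, SOCS5, SOCS6 and CISH, and the tyrosine phosphatases PTPN1, PTPN2 and PTPN6. They were selected by gene symbol, with earlier results of these data known, and account for 10 of the 57820 rows of an RNA-seq table of expected counts. Each symbol had 1 row. The cells were M14, an established line from a human melanoma, kept in puromycin and carrying an shRNA against STAG2 that doxycycline switches on. Doxycycline was given for 5 days to make the STAG2-KD libraries (KD, n = 3), and the same cells without doxycycline were the WT libraries (n = 3), so the WT cells also carry the hairpin. The comparison asks how the transcriptome of melanoma cells differs when STAG2, a subunit of the cohesin ring that shapes DNA loops, is depleted. One hairpin in a single line was used, and exposure to doxycycline and loss of STAG2 cannot be told apart in these libraries.

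Cytokine receptors of the interferon, interleukin-6 and growth hormone classes signal through Janus kinases (JAKs), which phosphorylate the receptor and the STAT transcription factors. SOCS proteins bind phosphorylated receptors or the kinases through an SH2 domain and recruit a cullin-5 ubiquitin ligase through the SOCS box, and SOCS1 and SOCS3 also block JAK activity directly. Several SOCS genes are themselves STAT targets, which closes a feedback loop, whereas PTPN1, PTPN2 and PTPN6 remove phosphate from JAKs, STATs or receptors.

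Promoter letters were examined for motifs of the STAT pathway, and 2 promoters are shown because they carried the only matches in the windows searched. RefSeq windows on GRCh38.p14, from 250 bases before to 50 bases after the annotated start, were found for 8 of the 10 genes (10 windows, none for SOCS2 or SOCS5). They were searched on both strands for TTCNNNGAA, the STAT dimer motif, which 7.66% of 35116 promoter windows of this length hold, and for GAAANNGAAA, an interferon-stimulated response element (ISRE)-like motif, which 3.57% hold. Capitals mark the matches, written 5′ to 3′ on the strand of the gene.
CISH, chr3:50611725-50612024, minus strand: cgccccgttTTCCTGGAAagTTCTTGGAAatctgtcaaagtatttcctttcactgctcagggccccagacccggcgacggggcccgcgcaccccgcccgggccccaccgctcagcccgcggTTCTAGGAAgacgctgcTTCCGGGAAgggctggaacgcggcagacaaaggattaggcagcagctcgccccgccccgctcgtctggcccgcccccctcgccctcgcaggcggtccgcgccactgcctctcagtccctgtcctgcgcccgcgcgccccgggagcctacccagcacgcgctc
SOCS1, chr16:11256155-11256454, minus strand: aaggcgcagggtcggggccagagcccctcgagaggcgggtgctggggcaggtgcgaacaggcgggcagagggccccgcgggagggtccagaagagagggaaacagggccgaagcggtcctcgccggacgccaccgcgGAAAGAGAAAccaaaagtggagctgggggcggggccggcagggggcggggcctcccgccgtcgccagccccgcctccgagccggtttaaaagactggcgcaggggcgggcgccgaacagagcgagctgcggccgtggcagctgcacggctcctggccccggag
The CISH window held 4 STAT matches, beginning 241, 230, 129 and 112 bases before the start, and the SOCS1 window held 1 ISRE-like match beginning 113 bases before it. Neither motif stood in the windows of the other 6 genes, which says only that these letters were not found there. The windows did not cover the 5′ ends of the SOCS3 and PTPN2 gene models used here, so those stretches were not searched.

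STAG2 itself was measured at 66.5, 34.8 and 28.8 CPM (counts scaled to library size, normalised by trimmed mean of M-values, TMM) in WT replicates 1 to 3 and at 16.0, 7.31 and 6.69 CPM in the KD replicates. It fell by 2.12 on the log2 scale (SE 0.43; edgeR quasi-likelihood adjusted p = 0.0342), with no overlap between the groups. The libraries held 24895998 to 35181733 expected counts. WT replicate 1 stood apart by its mitochondrial share, 5.07% against 2.12% to 2.94% in the others, and by 20646 genes above 0 against 16028 to 17995. All 8 melanocytic markers examined were at a mean of at least 1 CPM, with a summed level of 1861 to 6311 CPM in WT and 1195 to 2606 CPM in KD. Of these, S100B alone was called, falling from 117 to 45.9 CPM (edgeR adjusted p = 0.00949). Of 10 leukocyte markers, 4 reached a mean of 1 CPM. The sum of the list was 55.3 to 65.0 CPM in WT and 110.6 to 162.9 CPM in KD, while CD3E was at 0 in every library and PTPRC at 0 in 5 of 6. The macrophage-associated CD68 was the 1 leukocyte marker called, from 33.5 to 100.9 CPM (edgeR adjusted p = 0.00855). Of 6 fibroblast markers 2 reached 1 CPM (sum 4.26 to 93.6 CPM in WT, 3.49 to 23.6 in KD), and of 3 endothelial markers 1 did (2.51 to 3.80 and 2.08 to 5.72 CPM). The part of these shifts in any result below was not tested.

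None of the 10 genes was called between KD and WT: 0 were higher and 0 lower at an adjusted p under 0.05 (edgeR quasi-likelihood test, adjusted over 15605 genes), against 2.59% of all genes tested. No member had an unadjusted p under 0.05 in the main edgeR fit or with DESeq2, and PTPN1 alone did with limma-voom. In edgeR with no filter on low counts, or without WT replicate 1, SOCS3 alone did. Without WT replicate 2 PTPN1 alone did, and without both replicate 1 libraries SOCS3 and PTPN1 did. When the replicate number was added as a block, 2 members did (SOCS3 and PTPN1), and still none was called, while the share of all genes called rose to 9.52%. The share of all genes under the unadjusted cut was not counted. Counts at that cut, here and for the lists below, are therefore not read as particular to the genes counted. The median log2 fold change of the 10 genes was −0.11, beside −0.03 over all genes tested, with 4 above 0 and 6 below. All 10 passed the filter on low counts. Their median standard error in the fit without the block was 0.46 log2 units, above the 0.35 of all genes tested. The interval given with each gene holds the changes that its values allow and is not a limit of detection. In bulk RNA, fewer cells with a transcript and less of it per cell cannot be told apart.

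**Figure D1:**
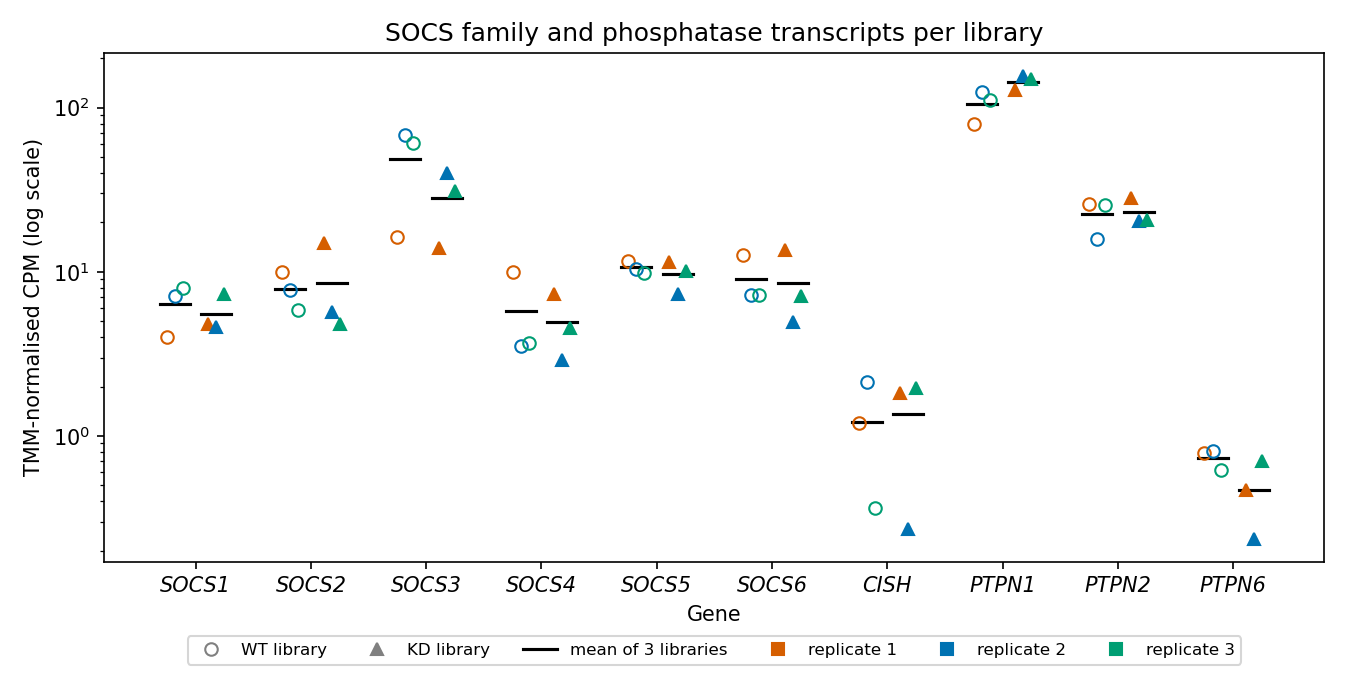
TMM-normalised CPM on a log axis for each of the 10 genes in the 3 WT (circles) and 3 KD (triangles) libraries, coloured by replicate number, with bars at the group means. PTPN1 was the only gene whose KD libraries (128 to 155.6 CPM) all lay above its WT libraries (79.5 to 124 CPM), and SOCS3 was lowest in both replicate 1 libraries (16.4 and 14.03 CPM).

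The genes spanned a wide range of abundance in WT cells. Per kilobase of the canonical transcript, PTPN1 had the highest level at 26.3 ± 5.74 CPM per kb (SD, n = 3), followed by SOCS3 at 17.7 ± 10.3 and PTPN2 at 6.44 ± 1.64. SOCS1 (5.13 ± 1.69), SOCS2 (3.29 ± 0.857) and SOCS5 (2.24 ± 0.199 CPM per kb) held the middle. The lowest levels were those of SOCS6 (1.58 ± 0.548), SOCS4 (0.832 ± 0.539), CISH (0.607 ± 0.434) and PTPN6 (0.341 ± 0.0482 CPM per kb). Between neighbours in this order, only SOCS2 and SOCS5 had WT libraries that did not overlap. PTPN1 lay at percentile 81.2 and SOCS3 at 74.8 of the tested genes, and PTPN6 at 10.5.

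SOCS1, an inhibitor of JAK activity downstream of interferon receptors, lies on the minus strand of chromosome 16 (11348274 to 11350061 on GRCh37, 2 exons). Its level was 3.99, 7.14 and 7.94 CPM in WT replicates 1 to 3 and 4.79, 4.602 and 7.31 CPM in KD. The KD values all fell within the WT range. Its log2 fold change was −0.19 (SE 0.42, 95% interval −1.14 to 0.76; edgeR adjusted p = 0.903), so a fall to 0.454-fold and a rise to 1.69-fold were both inside the interval. SOCS1, whose promoter window held the ISRE-like match, was not called in either direction.

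SOCS3, which binds the shared interleukin-6 family receptor gp130 and inhibits the kinases attached to it, is on the minus strand of chromosome 17 (76352859 to 76356158, 2 exons). WT libraries held 16.4, 68.1 and 61.1 CPM and KD libraries 14.03, 39.8 and 31.0 CPM. The same-numbered pairs gave log2 differences of −0.22, −0.77 and −0.98, with KD lower in all 3 pairs, yet the groups overlapped since WT replicate 1 lay near the lowest KD library. The log2 fold change was −0.78 (SE 0.51, 95% interval −1.92 to 0.37; edgeR adjusted p = 0.569). With the replicate block it was −0.66 (SE 0.20, interval −1.10 to −0.23; edgeR adjusted p = 0.0614), and without both replicate 1 libraries it was −0.86 (edgeR adjusted p = 0.0554). With no filter on low counts it was −0.78 (SE 0.26; edgeR adjusted p = 0.0600). None of these passed the threshold.

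SOCS2 and CISH are best known as feedback inhibitors of STAT5 signalling by growth hormone, prolactin and related hormones. SOCS2 (plus strand of chromosome 12, 93963590 to 93977263, 2 exons) gave WT values of 9.95, 7.77 and 5.86 CPM and KD values of 14.999, 5.68 and 4.84 CPM. KD replicate 1 was the highest library and the other 2 KD libraries the lowest, so the spread in KD (8.51 ± 5.64 CPM) exceeded the distance between the means. Its log2 fold change was 0.11 (SE 0.48, 95% interval −0.95 to 1.18; edgeR adjusted p = 0.958), and it turned to −0.04 with the replicate block. The lncRNA SOCS2-AS1 shares 277 exon bases on the opposite strand, with a mean of 63.2 counts in WT and 65.1 in KD.

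CISH (minus strand of chromosome 3, 50643920 to 50649205, 3 exons), the gene with the STAT matches printed above, was close to the lower end of detection. It had 32, 73 and 10 expected counts in WT and 59, 8 and 64 in KD, or 1.19, 2.12 and 0.364 CPM against 1.84, 0.271 and 1.96 CPM. High and low libraries occurred in both groups, and the 3 same-numbered pairs gave log2 differences of 0.62, −2.97 and 2.43. The fitted log2 fold change of 0.14 (SE 1.06, 95% interval −2.23 to 2.52; edgeR adjusted p = 0.975) had an interval that includes several-fold changes in both directions. MAPKAPK3 overlaps 218 exon bases of CISH on the opposite strand and had a mean of 4709 counts in WT and 8634 in KD. The paper names a directional kit for these libraries. The strand setting of the counting is not given in the sources used here, so reads in those bases cannot be assigned with certainty.

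SOCS4, SOCS5 and SOCS6 form the branch of the family less tied to STAT feedback, with SOCS4 and SOCS5 linked to epidermal growth factor receptor turnover and SOCS6 to receptor tyrosine kinases such as KIT. SOCS4 (plus strand of chromosome 14, 55493948 to 55516207, 3 exons) gave WT values of 10.0, 3.51 and 3.68 CPM and KD values of 7.28, 2.91 and 4.56 CPM. SOCS6 (plus strand of chromosome 18, 67956281 to 67997435, 2 exons) gave WT values of 12.6, 7.22 and 7.21 CPM and KD values of 13.5, 4.94 and 7.16 CPM. Both genes were highest in the replicate 1 library of each group. Their log2 fold changes were −0.22 (SE 0.55, 95% interval −1.46 to 1.02; edgeR adjusted p = 0.917) for SOCS4 and −0.08 (SE 0.44, interval −1.06 to 0.91; edgeR adjusted p = 0.968) for SOCS6. With the replicate block they were −0.14 (SE 0.40, edgeR adjusted p = 0.886) for SOCS4 and −0.15 (SE 0.30, edgeR adjusted p = 0.835) for SOCS6.

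SOCS5 (plus strand of chromosome 2, 46926091 to 47007384, 2 exons) had WT libraries close to each other. The 3 WT libraries held 11.7, 10.5 and 9.83 CPM (10.7 ± 0.95), against 11.5, 7.31 and 10.1 CPM in KD (9.65 ± 2.15). KD replicate 2 was the lowest library, and the other KD libraries lay within the WT range. The log2 fold change was −0.14 (SE 0.31, 95% interval −0.83 to 0.55; edgeR adjusted p = 0.898). Of the pseudogenes of SOCS2, SOCS5 and PTPN2 in the table, none had a group mean above 1.67 counts.

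PTPN1, the phosphatase PTP1B, which dephosphorylates JAK2, TYK2 and the insulin receptor, is on the plus strand of chromosome 20 (49126858 to 49201778, 10 exons). WT libraries held 79.5, 124 and 111 CPM and KD libraries 128, 155.6 and 148 CPM. The groups did not overlap, a separation that 22.3% of all tested genes showed in one direction or the other. The mean was 104.8 ± 22.8 CPM in WT and 144 ± 14.3 CPM in KD, a 1.37-fold difference (95% interval 0.987 to 1.91). The log2 fold change was 0.46 (SE 0.21; edgeR adjusted p = 0.361), and with the replicate block 0.48 (SE 0.15, interval 0.15 to 0.81; edgeR adjusted p = 0.0750), so that PTPN1 was not called in either fit. The exact permutation test over the 6 libraries, on both sides, gave p = 0.1, the smallest that 3 against 3 allows.

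PTPN2, the nuclear and endoplasmic phosphatase TC-PTP, which acts on JAK1, JAK3 and STATs, is on the minus strand of chromosome 18 (12785477 to 12929642, 9 exons). WT libraries held 25.7, 15.8 and 25.5 CPM, against 28.3, 20.3 and 20.7 CPM in KD. The groups overlapped, with a log2 fold change of 0.05 (SE 0.28, 95% interval −0.57 to 0.66; edgeR adjusted p = 0.969). PTPN6, or SHP-1, a phosphatase mainly of blood cells, lies on the plus strand of chromosome 12 (7055631 to 7070479, 16 exons). It had 21, 28 and 17 expected counts in WT and 15, 7 and 23 in KD, or 0.782, 0.812 and 0.619 CPM against 0.467, 0.237 and 0.704 CPM. KD replicates 1 and 2 lay below all WT libraries and KD replicate 3 among them. Its log2 fold change of −0.65 had an SE of 1.20 and a 95% interval from −3.34 to 2.04 (edgeR adjusted p = 0.879), while the leukocyte marker sum given above was higher in KD.

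**Figure D2:**
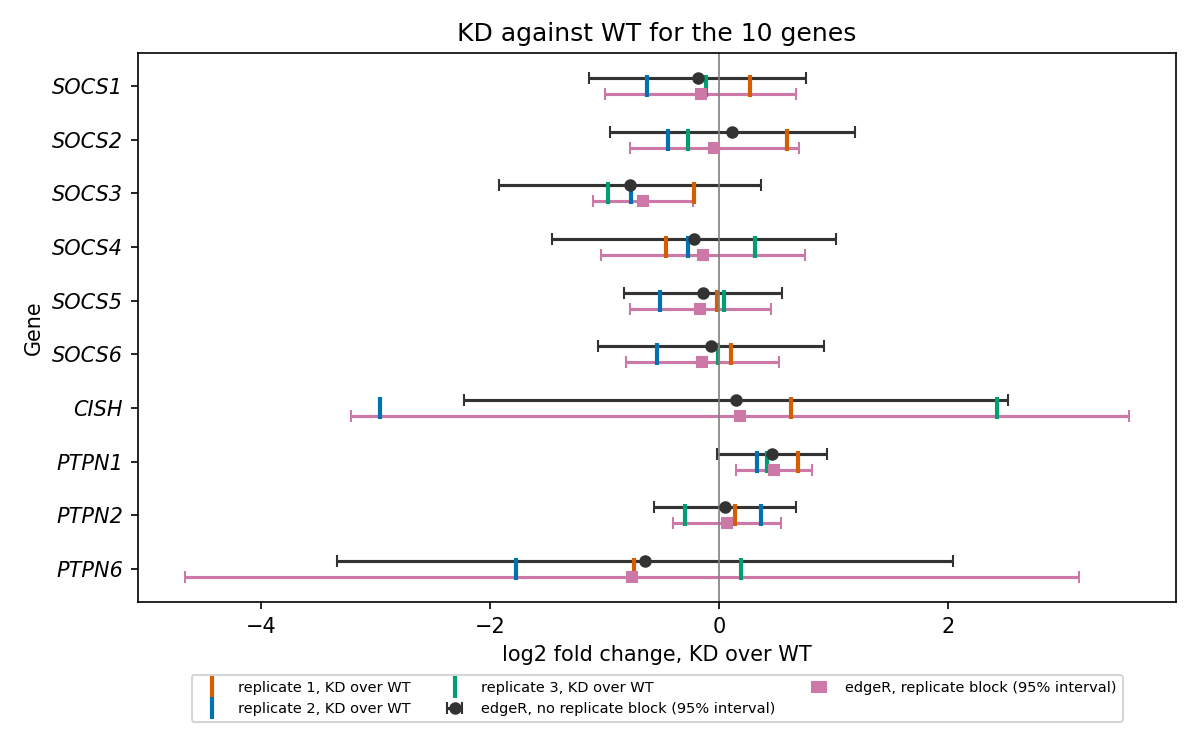
Log2 fold change of KD over WT for the 10 genes, from edgeR without (circles) and with (squares) a replicate block, with 95% intervals, and the log2 difference of each same-numbered pair as ticks. The intervals of CISH (−2.23 to 2.52) and PTPN6 (−3.34 to 2.04) are the widest, and only SOCS3 and PTPN1 have block intervals that do not include 0.

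Much of the variation in these genes followed the replicate number shared by a WT and a KD library. Of the sum of squares of log2 CPM over the 6 libraries, the replicate number took a median of 73.7% in the 10 genes and 44.5% over all genes, and the condition 3.34% and 22.2%. Replicate number holds 2 of the 5 degrees of freedom and condition 1. Replicate number took more than condition in 8 of the 10 genes, the exceptions being PTPN1 and PTPN6, and in 62.8% of 13006 genes. SOCS4 (91.9%), SOCS6 (90.0%), SOCS2 (83.0%) and SOCS3 (82.2%) had the largest replicate shares. In PTPN1 the condition took 56.4% and the replicate number 37.8%, and in CISH 87.5% belonged to neither. When the replicate number was tested as a term, an analysis added after the data were seen, 1 member was called, SOCS3 (edgeR adjusted p = 0.0124), beside 3.89% of all genes. Its replicate 2 and 3 libraries were 1.77 and 1.51 log2 units above replicate 1.

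**Figure D3:**
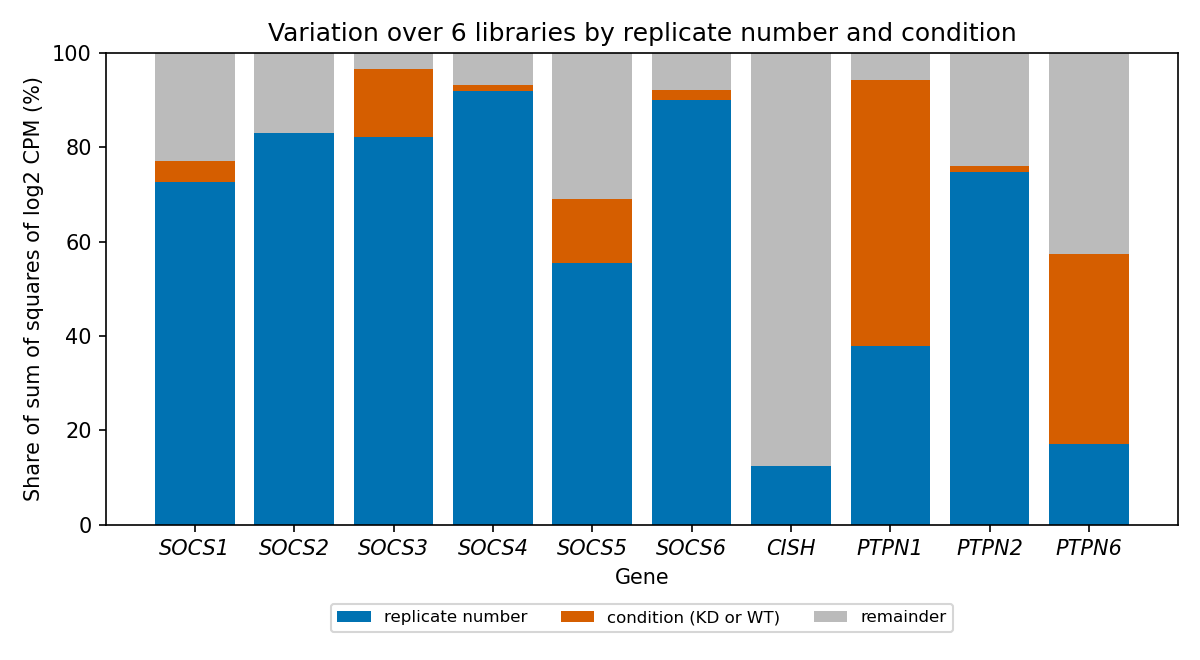
Share in percent of the sum of squares of log2 CPM over the 6 libraries that goes with replicate number, with condition and with neither, for each gene. Replicate number takes 91.9% in SOCS4 and 82.2% in SOCS3, condition takes 56.4% in PTPN1, and 87.5% in CISH goes with neither.

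Over the 6 libraries, which are 2 conditions by 3 replicate numbers, SOCS6 moved with SOCS4 (Pearson r = 0.932), SOCS5 (0.885) and SOCS2 (0.861), and SOCS3 ran opposite to SOCS4 (−0.862). These r values describe 6 libraries that share condition and replicate number. The genes most like SOCS3 among 13535 genes were LOXL2 (r = 0.998), TUBB3 (0.997) and ENO1 (0.995), those most like SOCS1 were HRAS (0.995), GAR1 (0.991) and PRDM8 (0.984), and those most like PTPN1 were AP001007.1 (0.995), SGSH (0.995) and CHMP7 (0.993). With so many genes searched over 6 points, such values are a description only.

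Ratios of related brakes were compared within libraries. The log2 ratio of SOCS1 to SOCS3, the main JAK inhibitors, was −2.75 ± 0.63 in WT and −2.25 ± 0.79 in KD (SD, difference 0.50, exact permutation p = 0.5). It was higher in KD in all 3 same-numbered pairs, by 0.49, 0.14 and 0.86, and the exact permutation of signs over the pairs, added after the data were seen, gave p = 0.25, the smallest that 3 pairs allow. The ratio of PTPN1 to PTPN2, close relatives, was 2.24 ± 0.68 and 2.65 ± 0.41 (difference 0.41, exact permutation p = 0.5), and was higher in KD in 2 of 3 pairs. The ratios of SOCS2 to CISH, SOCS4 to SOCS5 and SOCS6 to SOCS7 differed by −0.07, 0.03 and −0.02 log2 units. The WT and KD libraries overlapped in all 5 ratios. The smallest raw p of the unpaired test is 0.1, so these tests could not reach the threshold and do not show that any ratio was unchanged.

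Genes in other parts of the pathway were called. STAT2, a transcription factor of type I interferon signalling, rose from 91.7 ± 22.3 to 352 ± 29.4 CPM (log2 fold change 1.94, SE 0.23; edgeR adjusted p = 0.00184), with all KD libraries above all WT libraries. STAT3 had a log2 fold change of 0.08 and STAT5A of 0.05, with edgeR adjusted p of 0.926 and 0.963.

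Of 13 other brakes tested, 1 was higher and 0 lower (2 and 1 with the block, which added the adaptor SH2B3 as higher and PTPN11 as lower). USP18, the protease that removes ISG15 and binds the type I interferon receptor to dampen it, rose from 6.14 ± 1.80 to 129.6 ± 21.3 CPM (log2 fold change 4.397, SE 0.29; edgeR adjusted p = 5.21e-05). Reads of USP18 can be shared with the near-identical USP41. SOCS7, the remaining family member, averaged 6.76 CPM in WT against 6.17 CPM in KD (log2 fold change −0.13; edgeR adjusted p = 0.922). The 8 partners of the SOCS-box ubiquitin ligase had 0 calls in either direction with edgeR, with or without the block, and 0 with DESeq2 or limma-voom, and a median log2 fold change of −0.05. At an unadjusted p under 0.05 the count was 0 with edgeR and 2 with the block.

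Ligands of JAK-coupled receptors had 13 of 33 listed genes above the filter, with 3 higher and 0 lower (6 and 0 with the block, which added LIF, CLCF1 and EBI3) and a median log2 fold change of 1.999. A ligand near 0 in WT, such as IFNL1, could enter only through its KD level. The count of rises and the median of this list are therefore partly set by the filter. IFNL1, a type III interferon, was at 0 in the 3 WT libraries and at 8.56 ± 2.23 CPM in KD, at least 83.4-fold higher taking 3 counts per library as the floor (edgeR adjusted p = 0.0011). IL11, a cytokine that signals through gp130, rose from 1.17 ± 0.449 to 20.2 ± 3.63 CPM (log2 fold change 4.11, SE 0.41; edgeR adjusted p = 0.000741). IL24, an interleukin-10 family cytokine and the remaining called ligand, went from 7.51 to 55.1 CPM (edgeR adjusted p = 0.00539).

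Cytokine receptors had 27 of 38 listed genes tested, with 0 called in either direction by edgeR without the block and 1 in each direction with it (CSF2RA higher, IL6ST lower), and a median log2 fold change of 0.29. DESeq2 called 4 of them (IL10RA, IL23R, IL6R and IL6ST) and limma-voom 1 (IL6ST), and 9 had an unadjusted p under 0.05 with edgeR. IL10RA was at 0 in WT, so it passed the filter only through its KD level. Of 18 tested targets of STAT3 and STAT5, 1 was higher and 0 lower, with a median of 0.32. The block gave 5 higher (VEGFA, TIMP1, CCND1, BCL2L1 and MCL1) and 2 lower (CEBPD and IL6ST), DESeq2 called 5 (CEBPD, IL6ST, MCL1, TIMP1 and VEGFA) and limma-voom 4 (CEBPD, IL6ST, TIMP1 and VEGFA). VEGFA, the angiogenic growth factor, rose from 96.7 ± 7.91 to 232.6 ± 53.1 CPM (log2 fold change 1.27, SE 0.22; edgeR adjusted p = 0.0166). The 11 other non-receptor tyrosine phosphatases had 0 calls with edgeR (0 higher and 1 lower, PTPN11, with the block) and a median of 0.10. DESeq2 and limma-voom called 0 of them, and 1 had an unadjusted p under 0.05 with each of these tools and with edgeR. Beside these list counts, edgeR called 2.59% of all genes tested, and 9.52% with the block. The shares of all genes called by DESeq2 and limma-voom were not counted.

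**Figure D4:**
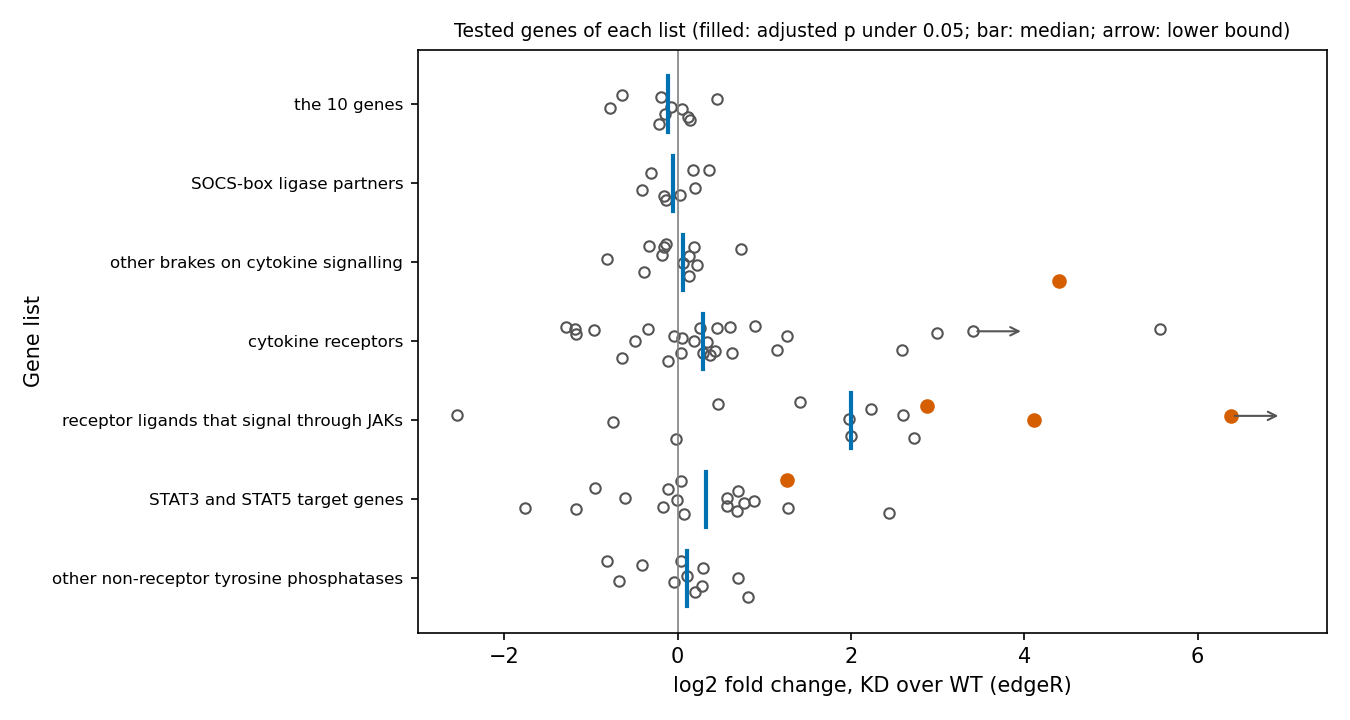
Log2 fold change of KD over WT from edgeR for the 10 genes and the tested genes of 6 pathway lists; filled points passed the adjusted p threshold of 0.05, bars are medians and arrows mark lower bounds for genes at 0 in WT. The 10 genes have no filled point and a median of −0.11. The ligands have 3 filled points, and some of the 13 shown passed the filter through their KD level, so the medians of these 2 rows are not compared. In the receptor row IL10RA, at 0 in WT, also passed through its KD level.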

How the data were processed

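RNA was measured by polyA-selected, directional, single-read sequencing in 6 libraries of M14 cells, 3 WT and 3 KD, grouped by the labels. Expected counts per gene were deposited by the authors, who used RSEM 1.3.0 after alignment to hg19 by STAR 2.7.0f; no other unit was used. Expected counts were rounded, filtered (filterByExpr), normalised by TMM and tested with edgeR 4.0.16 (quasi-likelihood F test; R 4.3.3) over 15605 genes, with Benjamini-Hochberg adjustment and a threshold of 0.05. DESeq2 1.42.0, limma 3.58.1 (voom), other filters, upper-quartile scaling, unrounded counts, a replicate block and leaving out each library were alternatives. Library totals were 24895998 to 35181733, and 3 counts, the floor, equalled 0.0870 to 0.112 CPM; this covers counting error only. The study describes its RNA-seq replicates as biologically independent samples, and the labels do not say what same-numbered libraries share. Same-numbered WT and KD libraries deviated together from their group means (r = 0.472, 0.321 and 0.269 over 13535 genes, −0.363 to 0.167 for other pairs). The numbers were taken as pairing them wherever a replicate block or same-numbered pairs are named. The main edgeR fit used no pairing, so its standard errors include differences between replicate numbers. The 10 members, the gene lists and the markers were chosen with earlier results of these data known. Named genes were all members, STAG2, and, per list, up to 2 rises and 2 falls largest by log2 fold change among called genes of at least 1 CPM, and the genes of highest r (3 per member, printed for SOCS1, SOCS3 and PTPN1, a choice made after the values were seen). Other named genes were chosen after their values were seen. Counts for the list of JAKs and STATs are not reported here. On simulated data 25.0% of 76 genes changed 2-fold and 67.3% of 110 changed 4-fold were called, and 7 of 14512 unchanged genes. The simulated libraries had no effect of replicate number, and the changed genes were picked at random. These rates are therefore not the rates of detection for the 10 genes. Gene positions are from GRCh37 (GENCODE), promoters from RefSeq GRCh38.p14.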

Additional observations from a re-analysis of the deposited data

How the results depend on the processing

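The count of called members was 0 in every alternative run: the replicate block, DESeq2, limma-voom, upper-quartile scaling, no filter, unrounded counts, a filter of 10 counts in every library, which left 8 members (not CISH or PTPN6), each library left out, and both replicate 1 libraries left out, the last chosen after seeing the data. The block changed no member's call. Calls over the 7 lists together, a gene of 2 lists counted once, numbered 7, and 21 with the replicate block, 17 with DESeq2, 18 with no filter, 14 without both replicate 1 libraries, and 6 to 9 when 1 library was left out. STAG2 missed an adjusted p threshold of 0.01 (log2 fold change −2.12), and with 1 library left out its value was −2.63 to −1.68, with an edgeR adjusted p of 0.0757 without WT replicate 2, 0.0652 without WT replicate 3, 0.168 without KD replicate 2 and 0.152 without KD replicate 3. Among 158 member values under alternatives, 19 changed sign and none was past the threshold. The 158 include each main value repeated under an adjusted p of 0.01 and under an absolute log2 fold change of 1. Those repeats could not change sign or newly pass. SOCS2 was −0.043 with the replicate block and −0.039 with limma-voom. With libraries left out, log2 fold changes spanned −0.58 to 0.37 for SOCS2, −0.62 to 0.44 for SOCS4, −0.29 to 0.017 for SOCS5, −0.57 to 0.23 for SOCS6, −0.29 to 0.79 for CISH, −0.16 to 0.15 for PTPN2, −0.45 to −0.0018 for SOCS1, −1.19 to −0.45 for SOCS3, 0.29 to 0.59 for PTPN1 and −1.08 to −0.34 for PTPN6. Without both replicate 1 libraries they were −0.37 for SOCS2, 0.06 for SOCS4, −0.15 for CISH and −0.0024 for PTPN2. The cause was not tested. The 5 ratio differences moved by less than 1 SD pooled over WT and KD, yet with 1 library left out they spanned 0.15 to 0.93 for SOCS1 to SOCS3, −0.81 to 0.73 for SOCS2 to CISH, −0.23 to 0.45 for SOCS4 to SOCS5, −0.41 to 0.46 for SOCS6 to SOCS7 and 0.11 to 0.78 for PTPN1 to PTPN2. CISH and PTPN6 had the fewest counts and the widest intervals.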

Other observations

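The receptor chain that SOCS3 binds, gp130 (IL6ST), was at lower values in KD, while its partner chains differed among themselves. All genes named here were chosen after their values were seen. IL6ST had WT values of 87.4, 53.6 and 51.4 CPM and KD values of 35.05, 24.9 and 25.002 CPM, with no overlap (log2 fold change −1.18, SE 0.27; edgeR adjusted p = 0.0528, and 0.00214 with the replicate block). The interleukin-6 receptor IL6R had a log2 fold change of −1.18 (edgeR adjusted p = 0.142) and the leukaemia inhibitory factor receptor LIFR of −0.97 (edgeR adjusted p = 0.363), and neither passed with the block (0.0615 and 0.0619). DESeq2 called IL6R but not LIFR, and limma-voom called neither. The oncostatin M receptor OSMR averaged 68.8 CPM in WT and 70.5 CPM in KD (edgeR adjusted p = 0.977), and the interleukin-27 receptor IL27RA 25.2 and 39.1 CPM (edgeR adjusted p = 0.289). PTPN11, or SHP-2, the phosphatase that shares the SOCS3 docking site on gp130, had a log2 fold change of −0.81 (edgeR adjusted p = 0.170, and 0.0222 with the block). The kinase JAK3, which pairs with the common gamma chain of interleukin receptors, had a log2 fold change of 1.74 (edgeR adjusted p = 0.0690, and 0.00915 with the block). DESeq2 also called JAK3, and limma-voom did not.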
